A study of Homo sapiens with 66 samples.

Results

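The Notch genes followed here are 10 genes of the Notch pathway, read through all 66 libraries of the series. They were NRARP, HES1, HES4, HEY1, JAG1, JAG2, DLL1, NOTCH1, NOTCH2 and LFNG. The genes were chosen by name, with earlier results of these data known. Each of the 10 symbols matched 1 of the 58051 Ensembl identifiers counted in every library. Of these, 9 passed the filter on low counts and were tested among 17812 genes, and HEY1 did not pass it.

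The cells were DLD-1, a human colorectal cancer line, in 22 groups of 3 libraries. In 6 derived lines 1 gene was tagged on both alleles with a degron (AID) that leads to proteasomal removal of its protein when auxin is present. The lines were AID-TPR (labelled AID-NeonGreen-TPR), NUP153-AID (NUP153-NeonGreen-AID), NUP50-AID (NUP50-NeonGreen-AID), RANGAP1-AID (GAP1-NeonGreen-AID), AID-NXF1 (AID-FLAG-NXF1) and AID-GANP (AID-HA-GANP1), and the parental DLD-1 cells were labelled as original. Per the study's methods the tagged lines also carry the plant ubiquitin ligase subunit TIR1 at the RCC1 locus, so untreated and treated cells of a line share both changes and the parental cells have neither. Auxin was given at 1 mM for 2 h (AID-TPR, NUP153-AID, RANGAP1-AID, AID-NXF1, DLD-1) or 3 h (NUP50-AID, AID-GANP), and for 8 h (AID-TPR, NUP153-AID, RANGAP1-AID) or 9 h (NUP50-AID). AID-TPR cells were deposited as a set without further label and as a set whose replicates are labelled old, and only the second has 8 h libraries. AID-TPR cells of 2 further groups received actinomycin D (ActD), which blocks transcription, for 2 h with or without auxin. TPR, NUP153 and NUP50 form the basket on the nuclear side of the nuclear pore, GANP is the scaffold of the TREX-2 mRNA export complex, NXF1 is the main mRNA export receptor, and RANGAP1 drives the Ran cycle of nuclear transport.

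In Notch signalling a ligand on one cell (JAG1, JAG2, DLL1) binds a receptor (NOTCH1, NOTCH2) on its neighbour. The receptor is cut, and its intracellular part enters the nucleus, where it joins the DNA-binding protein RBPJ and a Mastermind coactivator to switch on target genes. Among these targets are the repressors HES1, HES4 and HEY1 and the small ankyrin protein NRARP, which acts back on the receptor's nuclear complex as a negative regulator. LFNG is the glycosyltransferase Lunatic fringe, which modifies the receptors and changes their response to the different ligands. In the intestine the pathway maintains progenitor cells and favours absorptive over secretory fates.

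NRARP is the member with a single exon, a 2641-base gene on the minus strand at chr9:137299631-137302271 (GRCh38, GENCODE release 44). HES1 lies at chr3:194136148-194138732 and HES4 at chr1:998962-1000172, and each has 4 exons in its canonical transcript. LFNG (chr7:2512529-2529177) has 8 exons and DLL1 (chr6:170282206-170306565) has 11. JAG1 (chr20:10637684-10673999) and JAG2 (chr14:105140982-105168824) have 26 each, and NOTCH1 (chr9:136494433-136546048) and NOTCH2 (chr1:119911553-120100779) have 34 each. Exons of JAG1 share 306 bases with an antisense lncRNA, those of DLL1 share 370 bases with FAM120B on the other strand, and those of JAG2 share 469 bases with a lncRNA on the same strand. NOTCH2 has near-identical partial copies (the NOTCH2NL genes), so its counts are uncertain in that they depend on how shared reads were placed.

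The promoters of HES1, HES4 and NRARP, named above as target genes, are shown. Whether the RBPJ motif bears on any change of these transcripts was not tested. Each line gives the 250 bases before the start of the gene, 5′ to 3′ on the strand of the gene, from RefSeq on GRCh38.p14, with the RBPJ core TGGGAA, searched on both strands, in capitals.
HES1 (chr3:194135898-194136147, plus strand): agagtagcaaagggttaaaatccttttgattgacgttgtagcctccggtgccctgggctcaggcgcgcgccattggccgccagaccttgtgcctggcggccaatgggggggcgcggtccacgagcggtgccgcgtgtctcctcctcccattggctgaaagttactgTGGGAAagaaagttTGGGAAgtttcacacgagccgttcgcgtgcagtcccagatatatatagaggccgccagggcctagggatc
HES4 (chr1:1000098-1000347, minus strand): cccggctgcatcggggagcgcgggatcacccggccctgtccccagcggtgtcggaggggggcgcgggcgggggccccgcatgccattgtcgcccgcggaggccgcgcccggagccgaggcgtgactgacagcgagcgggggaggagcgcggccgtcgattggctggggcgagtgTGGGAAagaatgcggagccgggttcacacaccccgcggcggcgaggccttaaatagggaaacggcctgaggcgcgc
NRARP (chr9:137302272-137302521, minus strand): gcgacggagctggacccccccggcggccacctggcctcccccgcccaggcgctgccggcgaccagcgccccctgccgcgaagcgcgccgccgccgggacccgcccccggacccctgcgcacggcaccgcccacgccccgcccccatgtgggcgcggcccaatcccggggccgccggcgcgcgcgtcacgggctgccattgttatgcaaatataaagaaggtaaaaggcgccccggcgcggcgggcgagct
The core occurred at positions -84 and -70 from the start of HES1 and at -76 in HES4, and it was not in the window of NRARP. With the 50 bases after the start included, 24.0% of the 35116 promoters of the reference table held it on either strand and 3.80% held it more than once. Both RefSeq windows of LFNG held 1 core, and those of JAG1, JAG2, NOTCH1 and NOTCH2 held none. DLL1 and HEY1 were not looked up further, having no entry in the table.

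Total counts ranged from 18943661 to 55411411 per library, with a median of 32285399. In 24 libraries (AID-GANP, AID-NXF1, DLD-1 and AID-TPR without the label old) no mitochondrial gene had a count, and in the other 42 they did, and the step at which this arose is not given in the sources used here. Levels are therefore compared within a line and label set. The summed level of the epithelial markers EPCAM, CDH1, KRT8, KRT18, CDX1, CDX2 and VIL1 lay between 5280 and 14375 CPM (counts scaled to a common library total). KRT8 and KRT18 were the highest of them, with medians of 3686 and 3059 CPM. VIL1 ranged from 1.34 to 29.6 CPM, and CDX1 reached at most 0.537 CPM. Leukocyte, fibroblast and endothelial marker sums reached at most 1.75 CPM. Auxin removes the tagged protein rather than its RNA, and the tagged gene's own RNA was not called in its line at any time. Some labels were in doubt. The aryl hydrocarbon receptor target CYP1A1 was higher after auxin in each of the 11 comparisons of tagged lines, by 1.14 to 6.68 on the log2 scale (uncalled in NUP153-AID at 8 h and NUP50-AID at 9 h), but it was lower in the DLD-1 libraries labelled auxin (12.7 CPM) than in those labelled untreated (184 CPM). The DLD-1 libraries are named by their labels below, and the test that uses their direction is also given with their treatments exchanged. In old-labelled AID-TPR, replicate old2 of each time resembled the other time in CYP1A1 and MYC. At 2 h CYP1A1 read 421, 44.4 and 349 CPM and MYC 223, 414 and 264 CPM in old1, old2 and old3. At 8 h they read 89.1, 282 and 41.2 CPM and 476, 253 and 463 CPM. Whether the old2 libraries were exchanged was not tested, and they too are named by their labels. Replicates are separate samples by their labels and independent biological replicates by the study's methods. The p-values rest on the spread between these 3, weighed with the spread of all other tested genes. In the early fits examined, 4 residual degrees of freedom per gene stood beside 5.54 (NUP153-AID) to 7.62 (AID-NXF1) prior ones shared over all genes.

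In untreated cells NOTCH1, DLL1, JAG2 and LFNG differed most between the lines among the 9 tested genes, as the plot of untreated levels shows, and NOTCH2 and JAG1 differed least. NOTCH2 stood between 176 and 257 CPM as a group mean in all 8 untreated groups, whereas NOTCH1 went from 1.64 CPM in NUP50-AID to 39.4 CPM in old-labelled AID-TPR cells, a 24.1-fold range. JAG2 went from 10.0 CPM in RANGAP1-AID to 132 CPM in old-labelled AID-TPR, and DLL1 from 0.0821 CPM in NUP50-AID to 2.11 CPM in AID-TPR without that label. LFNG also spread, from 1.82 CPM in NUP50-AID to 21.9 CPM in old-labelled AID-TPR. NRARP, HES1 and HES4 spanned 3.42-fold, 3.5-fold and 2.41-fold over the same groups, and JAG1 spanned 2.02-fold. HEY1 spanned 13.4-fold, but on at most 9 counts per library. These untreated levels were not tested between lines, since line and the presence of mitochondrial counts cannot be told apart for all of them.

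**Figure D1:**
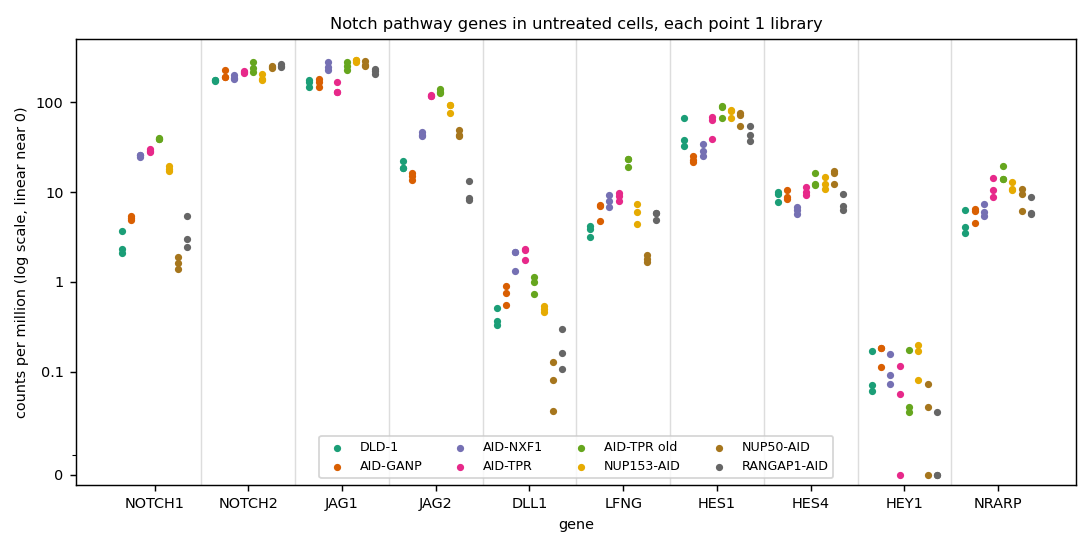
CPM of the 10 Notch genes (horizontal axis) in the 24 untreated libraries, on a logarithmic axis that is linear near 0; each point is 1 library and each colour a line or label set. NOTCH1, JAG2, DLL1 and LFNG spread by more than 10-fold between lines while the group means of NOTCH2 stay between 176 and 257 CPM.

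Per kilobase of exon, the median over the untreated groups was highest for JAG1 (25.4 CPM per kilobase) and HES1 (24.8), which lay closer together than their replicates. NOTCH2 followed with 12.6 CPM per kilobase, HES4 with 8.66, JAG2 with 6.97, NRARP with 2.98, LFNG with 1.78, NOTCH1 with 0.932 and DLL1 with 0.163. HEY1 was at 0.0168 CPM per kilobase, at most 9 counts in any library and none in 8 of them. NRARP itself rested on 55 to 554 counts per library, so its values carry a counting error that JAG1 and NOTCH2, with at least 3125 and 4720 counts, do not share.

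The first question was what loss of each protein did to these transcripts within 2 or 3 h. A gene was called when its adjusted p in edgeR's quasi-likelihood test was under 0.05 and its fold was at least 1.3 or at most 0.7. By this rule 1 of the 9 tested Notch genes was called in AID-TPR cells (0.511% of all tested genes were) and 1 in the old-labelled AID-TPR set (0.455%). In AID-NXF1, 3 were called (8.16%) and 4 in AID-GANP (15.5%). None was called at the early time in NUP153-AID (0.0393%), NUP50-AID (0.219%), RANGAP1-AID (0.589%) or DLD-1 (0.0561%). At an unadjusted p under 0.05 those last 4 comparisons had 3, 1, 2 and 0 of the 9, beside 667, 1091, 1297 and 558 of the 17812 tested genes. DESeq2 called HES1 alone of the Notch genes, in RANGAP1-AID. The 4 genes behind the calls were NRARP and LFNG, which were lower, HES1, which was higher, and HES4, which was lower in AID-GANP alone.

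**Figure D2:**
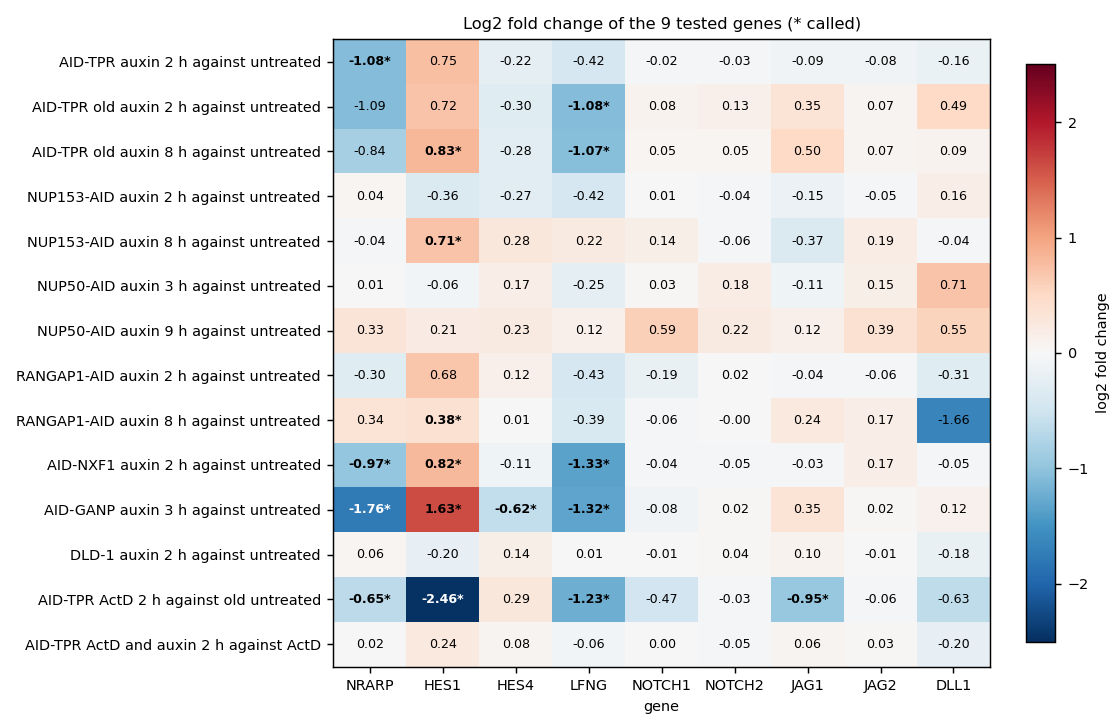
Log2 fold change (colour and number) of the 9 tested Notch genes in the 14 comparisons of a treated group with its control; stars mark called genes. NRARP and LFNG are blue and HES1 is red after loss of TPR, NXF1 or GANP, and HES1 is the strongest blue cell after ActD.

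NRARP, the feedback inhibitor, fell after loss of TPR, NXF1 or GANP. In AID-TPR cells it read 8.76, 14.5 and 10.6 CPM untreated and 4.55, 5.65 and 5.57 CPM after 2 h of auxin. Every treated library lay below every untreated one, with a log2 fold change of -1.08 (SE 0.19, n = 3 per group, edgeR adjusted p = 0.0399). The adjusted p ended between 0.0603 and 0.138 when auxin replicate 1, 2 or 3 or untreated replicate 2 or 3 was left out, while the log2 fold change stayed between -1.25 and -0.85 over all 6 omissions. In this line replicate numbers pair the libraries, and with the replicate number as a block the adjusted p of NRARP was 1.32e-12. That fit leaves 2 residual degrees of freedom per gene and weighs them against 51.6 prior ones shared over all genes, so its small p-values rest mainly on the spread of other genes. The log2 ratios of NRARP within the 3 pairs were -0.95, -1.36 and -0.93. The old-labelled set gave nearly the same size but missed the threshold: 14, 13.9 and 19.6 CPM untreated against 4.93, 7.56 and 8.13 CPM after 2 h, a log2 fold change of -1.09 (SE 0.24, edgeR adjusted p = 0.106). These groups did not overlap either, as in 19.5% of all tested genes. NRARP was called there by DESeq2 (adjusted p = 0.0014), in one fit over all 66 libraries and without the filter on low counts. The difference between both sets' effects on NRARP was 0.02 on the log2 scale (SE 0.34).

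AID-NXF1 cells went from 5.46, 5.98 and 7.45 CPM of NRARP to 2.91, 3.25 and 3.05 CPM, a log2 fold change of -0.97 (SE 0.13, edgeR adjusted p = 0.00038). AID-GANP cells showed the largest drop of the early comparisons, from 4.51, 6.21 and 6.45 CPM to 1.20, 1.76 and 1.77 CPM. The log2 fold change was -1.76 (SE 0.20, edgeR adjusted p = 9.02e-05), and both calls held without any single library. In NUP153-AID (10.6 to 13 CPM untreated, 10.4 to 13.9 CPM at 2 h) and NUP50-AID (6.20 to 11 and 6.81 to 11.7 CPM) the groups overlapped, with log2 fold changes of 0.04 (SE 0.13) and 0.01 (SE 0.22). RANGAP1-AID cells read 5.74, 5.82 and 8.88 CPM untreated and 5.66, 4.74 and 5.90 CPM after 2 h, a log2 fold change of -0.30 (SE 0.18) that was not called. The DLD-1 libraries labelled auxin differed from those labelled untreated by 0.06 (SE 0.21).

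**Figure D3:**
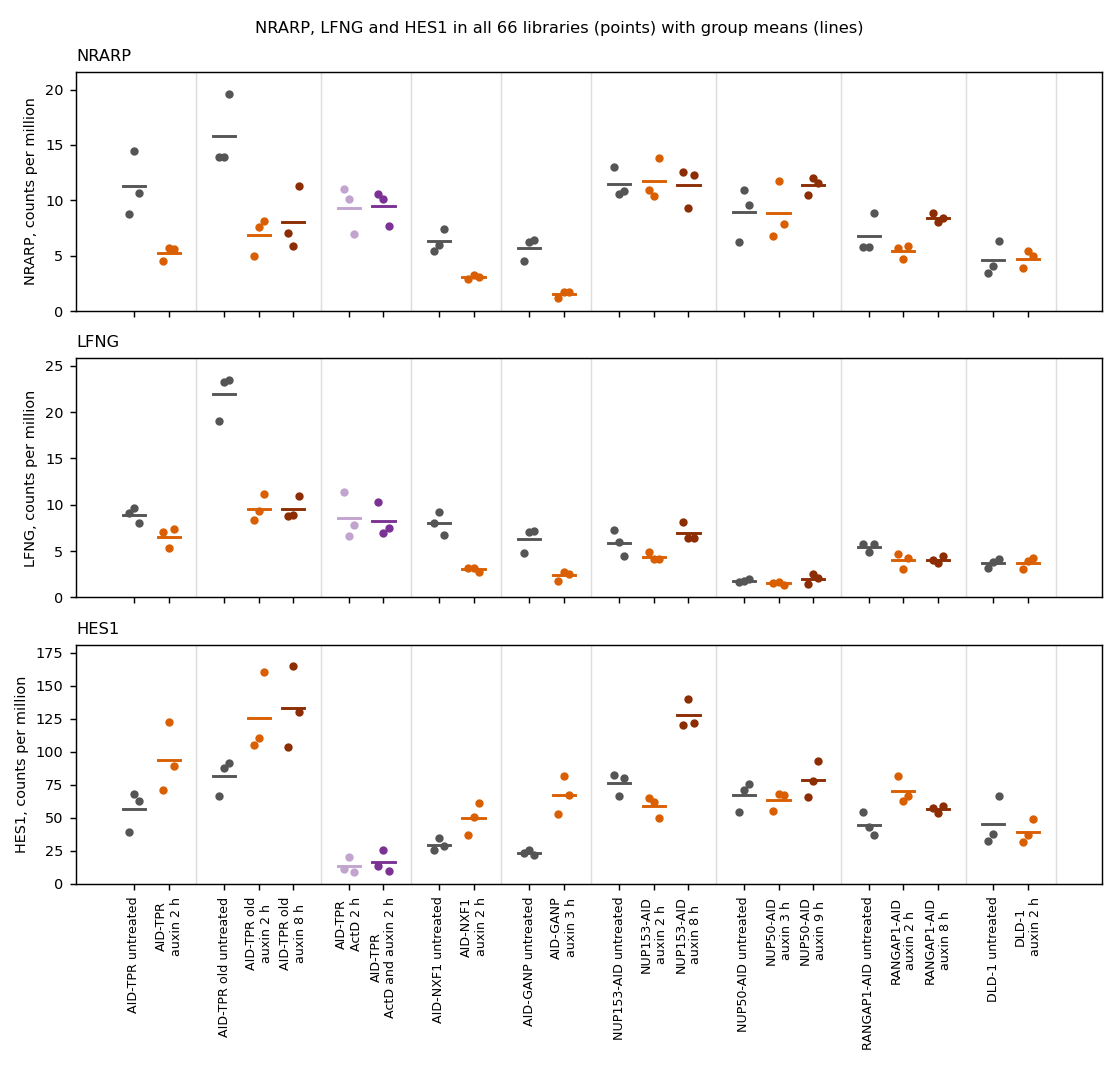
CPM of NRARP, LFNG and HES1 (one panel each, linear axes from 0) in all 66 libraries; points are libraries, lines are means of 3, grey is untreated, orange 2 or 3 h and brown 8 or 9 h of auxin, and purple ActD. NRARP and LFNG sit lower and HES1 higher after auxin in AID-TPR, AID-NXF1 and AID-GANP cells.

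LFNG, the modifier of the receptors, fell in AID-NXF1, AID-GANP and old-labelled AID-TPR cells. In AID-NXF1 it went from 8.05, 9.24 and 6.75 CPM to 3.23, 3.17 and 2.78 CPM, a log2 fold change of -1.33 (SE 0.14, edgeR adjusted p = 5.86e-05). In AID-GANP it went from 4.8, 7.09 and 7.15 CPM to 1.81, 2.77 and 2.55 CPM, with a log2 fold change of -1.32 (SE 0.20, edgeR adjusted p = 0.00067). Neither pair of groups overlapped (as in 37.5% and 42.2% of all tested genes), and both calls held without any single library. The AID-TPR sets differed in size. Old-labelled cells fell from 19.0, 23.3 and 23.5 CPM to 8.32, 9.31 and 11.2 CPM, a log2 fold change of -1.08 (SE 0.17, edgeR adjusted p = 0.032). Without auxin replicate old1 or untreated replicate old1, old2 or old3 the adjusted p lay between 0.0649 and 0.277. The other set went from 9.14, 9.68 and 8.00 CPM to 7.04, 5.30 and 7.36 CPM, without overlap but with a log2 fold change of -0.42 (SE 0.14) and an edgeR adjusted p of 0.339. The difference of 0.67 between the sets (SE 0.23) had an adjusted p of 1.00. LFNG also stood at -0.42 (SE 0.17) in NUP153-AID and -0.43 (SE 0.16) in RANGAP1-AID at 2 h, neither called.

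HES1, the repressor and best known of the targets, went the other way. Its largest rise was in AID-GANP, where 23, 25.5 and 21.7 CPM untreated became 53.1, 81.6 and 67.6 CPM, a log2 fold change of 1.63 (SE 0.14, edgeR adjusted p = 1.46e-05). In AID-NXF1 it rose from 25.4, 34.5 and 28.7 CPM to 37.1, 50.9 and 61.6 CPM, by 0.82 on the log2 scale (SE 0.15, edgeR adjusted p = 0.00228). The lowest treated library was above the highest untreated one in both lines. Groups did not overlap, in either direction, for 37.5% of all tested genes in AID-NXF1 and 42.2% in AID-GANP.

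AID-TPR cells read 39.4, 67.9 and 62.9 CPM of HES1 untreated and 70.8, 122 and 89.0 CPM after auxin. The log2 fold change of 0.75 (SE 0.23) missed the threshold, with an edgeR adjusted p of 0.25. The libraries of 1 replicate number lay high or low together, and with the replicate number as a block the SE was 0.06 and the adjusted p 1.95e-15, again resting mainly on the spread of other genes. The 3 pairs themselves gave log2 ratios of 0.84, 0.85 and 0.50 for HES1, whose mean has an SE of 0.12. The block raised the number of calls over all genes from 91 to 416. Old-labelled AID-TPR cells showed 66.5, 87.8 and 91.3 CPM untreated and 105, 110 and 161 CPM after 2 h. The log2 fold change was 0.72 (SE 0.18, edgeR adjusted p = 0.159), without overlap, as in 19.5% of all tested genes. DESeq2 called HES1 there (adjusted p = 0.0197), as did one fit over all 66 libraries and the fit without the filter on low counts. RANGAP1-AID was similar, with 54.1, 43.4 and 37.2 CPM against 81.6, 63.2 and 66.7 CPM, a log2 fold change of 0.68 (SE 0.14, edgeR adjusted p = 0.0889). With its replicate block, where numbers also pair, HES1 was called in RANGAP1-AID (adjusted p = 4.58e-09, 468 calls over all genes against 105, and 21.1 prior against 2 residual degrees of freedom), and without untreated replicate 1 it was called too (adjusted p = 0.032).

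NUP153-AID cells differed in sign. HES1 read 82.6, 66.2 and 79.9 CPM untreated and 65.1, 62.1 and 50.1 CPM after 2 h, a log2 fold change of -0.36 (SE 0.11, edgeR adjusted p = 0.927). With the replicate block the adjusted p was 0.000883 (28.3 prior against 2 residual degrees of freedom), though the fold of 0.779 stayed inside the bounds, and calls over all genes went from 7 to 134 with no Notch gene among them. NUP50-AID libraries overlapped at 54.3 to 75.7 CPM untreated and 55.1 to 68.3 CPM after 3 h, and the DLD-1 libraries overlapped as well.

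HES4, a second repressor of the family, was called in AID-GANP. It went from 8.34, 10.5 and 8.73 CPM to 4.77, 5.88 and 5.96 CPM without overlap, as in 42.2% of all tested genes. The log2 fold change was -0.62 (SE 0.13, edgeR adjusted p = 0.00523), and without untreated replicate 2 it was -0.51 and short of the fold bound. In one fit over all 66 libraries the call of HES4 was lost (adjusted p = 0.0984). In the other early comparisons HES4 lay between -0.30 in old-labelled AID-TPR and 0.17 in NUP50-AID on the log2 scale, none of them called. HEY1, the remaining repressor, had at most 0.198 CPM in any library and was not tested.

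The receptors and ligands showed no call at 2 or 3 h in any line. NOTCH1 lay between -0.19 (RANGAP1-AID, SE 0.27) and 0.08 (old-labelled AID-TPR, SE 0.16), and NOTCH2 between -0.05 (AID-NXF1, SE 0.07) and 0.18 (NUP50-AID, SE 0.07). Of the ligands, JAG1 lay between -0.15 in NUP153-AID (SE 0.05) and 0.35 in AID-GANP (SE 0.11) and old-labelled AID-TPR (SE 0.19). JAG1 in AID-GANP had an adjusted p of 0.0412 in edgeR but a fold of 1.27, short of the bound, and it crossed the bound without auxin replicate 1 or untreated replicate 2 (log2 fold changes of 0.45 and 0.42). JAG2 lay between -0.08 (AID-TPR, SE 0.07) and 0.17 (AID-NXF1, SE 0.06). DLL1, with at most 78 counts per library, ranged from -0.31 in RANGAP1-AID (SE 0.57) to 0.71 in NUP50-AID (SE 0.75), errors too large to show a change of this size at this depth. The early and late comparisons of a line share its untreated libraries.

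Whether the lines differed in these effects was tested directly, as the AID-TPR effect at 2 h minus that of another line, so all of these tests share the AID-TPR libraries. One Notch gene passed against AID-NXF1, where 2.28% of all tested genes did. This was LFNG, whose log2 fold change was 0.92 higher in AID-TPR (SE 0.21, edgeR adjusted p = 0.0314). Leaving out any of AID-NXF1 auxin replicate 1, 2 or 3, AID-NXF1 untreated replicate 1 or 2, AID-TPR auxin replicate 1 or 3, or AID-TPR untreated replicate 1 or 3 left no Notch gene past the threshold. None passed against NUP153-AID (0.646%), NUP50-AID (0.124%), RANGAP1-AID (0.298%), AID-GANP (5.77%), DLD-1 (0.825%) or the old-labelled set (0%). At an unadjusted p under 0.05 there were 2, 3, 1, 5, 3 and 1 of the 9 in these comparisons. The matching counts over all genes are not given here, so these are values only. DESeq2 passed NRARP against NUP153-AID and against DLD-1 and LFNG against AID-GANP. With the DLD-1 treatments exchanged, added after seeing the data, the difference for NRARP was -1.03 (SE 0.32, edgeR adjusted p = 0.318), 0.354% of all tested genes passed, and no Notch gene did by edgeR or DESeq2. Without AID-TPR untreated replicate 1, NRARP passed against NUP153-AID and HES1 against AID-GANP. Without AID-TPR auxin replicate 2, HES1 and LFNG passed against AID-GANP, and without AID-GANP untreated replicate 1 LFNG did.

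For NRARP the AID-TPR effect was lower than that in NUP153-AID by 1.13 on the log2 scale (SE 0.26, edgeR adjusted p = 0.0789). Against NUP50-AID, the difference for NRARP was -1.10 (SE 0.34, edgeR adjusted p = 0.283), and against RANGAP1-AID -0.79 (SE 0.28, edgeR adjusted p = 0.513). Against AID-NXF1 it was -0.10 (SE 0.26, edgeR adjusted p = 0.926) and against AID-GANP 0.68 (SE 0.31, edgeR adjusted p = 0.255). With a replicate block within lines, NRARP and HES1 passed against NUP153-AID and NRARP passed against RANGAP1-AID. Against AID-NXF1, the block added JAG2 to LFNG, and against AID-GANP 5 Notch genes passed (NRARP, HES1, HES4, JAG1, LFNG). These block counts are given without the number of all genes that passed, so they cannot be read as particular to Notch genes. In AID-GANP alone the block fit took the spread as common to all genes (an infinite prior).

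Time changed the picture for some lines. After 8 h 2 of the 9 genes were called in old-labelled AID-TPR (3.61% of all tested genes), 1 in NUP153-AID (1.34%) and 1 in RANGAP1-AID (14.9%), and none in NUP50-AID after 9 h (0.371%). In NUP50-AID 3 of the 9 had an unadjusted p under 0.05, beside 2940 of all tested genes, and DESeq2 called JAG2 alone of the 9. In old-labelled AID-TPR cells LFNG remained low at 8.76, 8.92 and 11 CPM (log2 fold change -1.07, SE 0.17, edgeR adjusted p = 0.019). HES1 stood at 104, 165 and 131 CPM, a log2 fold change of 0.83 (SE 0.19, edgeR adjusted p = 0.0439). The 165 CPM of HES1 is from replicate old2, which resembled the 2 h libraries old1 and old3 in CYP1A1 and MYC. The calls of this line at 2 h and 8 h are therefore not read as a difference between the times. NRARP at 7.07, 5.88 and 11.3 CPM was not called (log2 fold change -0.84, SE 0.27, edgeR adjusted p = 0.0974). Its libraries did not overlap with the untreated ones, as in 29.0% of all tested genes. DESeq2 did call NRARP (adjusted p = 0.0265), as did one fit over all 66 libraries and the fit without the filter on low counts.

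The calls at 8 h in old-labelled AID-TPR were sensitive to single libraries. LFNG lost its call without auxin replicate old1 or old3 or untreated replicate old1, old2 or old3 (adjusted p between 0.0582 and 0.126). HES1 lost its call without auxin replicate old3 or any untreated replicate, old1, old2 or old3 (adjusted p between 0.0966 and 0.173). JAG1 gained one without auxin replicate old2, the 8 h library that resembled 2 h (log2 fold change 0.66, adjusted p = 0.00227). Set directly against 2 h, no Notch gene and no gene of any kind was called at 8 h in this line (0%). An unadjusted p under 0.05 was found for 0 Notch genes and 48 of all genes, and DESeq2 called no Notch gene either. Replicate old2 of each group resembled the other time in CYP1A1 and MYC. The absence of calls therefore cannot show that the times are alike.

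In NUP153-AID the late response of HES1 was opposite in sign to the early one. It read 121, 140 and 122 CPM after 8 h, above every untreated library (19.8% of all tested genes did not overlap), with a log2 fold change of 0.71 (SE 0.10, edgeR adjusted p = 0.0102). Without auxin replicate 2 or untreated replicate 1 the adjusted p was 0.0567 and 0.054. Against 2 h, 3 of the 9 genes were called (1.95% of all tested genes), each higher at 8 h. HES1 was higher by 1.06 (SE 0.10, edgeR adjusted p = 0.000467). HES4 went from 9.40, 9.88 and 12 CPM to 15.3, 16.9 and 14.9 CPM, by 0.54 (SE 0.12, edgeR adjusted p = 0.0369). LFNG went from 4.89, 4.10 and 4.13 CPM to 8.13, 6.44 and 6.47 CPM, by 0.63 (SE 0.15, edgeR adjusted p = 0.0461). HES1 was the 1 call left without auxin 2 h replicate 1 or 2 or auxin 8 h replicate 2 or 3. The ligand JAG1 was lower after 8 h, at 232, 224 and 234 CPM against 284, 293 and 294 CPM untreated, but its fold of 0.775 did not reach the bound (edgeR adjusted p = 0.017).

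**Figure D4:**
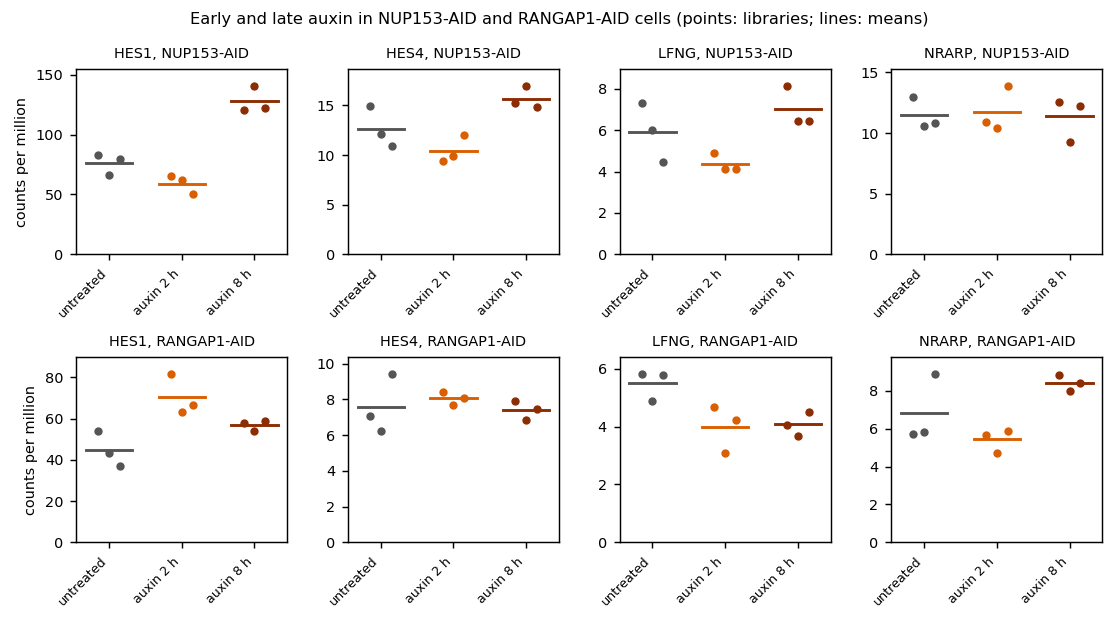
CPM of HES1, HES4, LFNG and NRARP (columns) in untreated cells and after 2 and 8 h of auxin in NUP153-AID (upper row) and RANGAP1-AID (lower row); points are libraries, lines are means of 3, and every axis starts at 0. HES1 in NUP153-AID is below untreated at 2 h and above it at 8 h, and NRARP in RANGAP1-AID is higher at 8 h than at 2 h.

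In RANGAP1-AID cells the mean of HES1 was above untreated at both times. Its level was 57.7, 53.9 and 58.8 CPM after 8 h, and the log2 fold change against untreated of 0.38 (SE 0.12, edgeR adjusted p = 0.0385) lay at the fold bound. The groups overlapped at untreated replicate 1. Without auxin replicate 1, 2 or 3 or untreated replicate 2 the adjusted p lay between 0.0806 and 0.108, and without untreated replicate 3 it was 0.0638. NRARP was the 1 gene of the 9 called at 8 h against 2 h, where 8.80% of all tested genes were. It went from 5.66, 4.74 and 5.90 CPM to 8.86, 8.01 and 8.41 CPM, by 0.63 on the log2 scale (SE 0.12, edgeR adjusted p = 0.0054), and the groups did not overlap, as in 34.3% of all tested genes. Against untreated cells NRARP at 8 h was not called (0.34, SE 0.15, edgeR adjusted p = 0.132), though it was without untreated replicate 3 (0.57, adjusted p = 0.00483). LFNG, at 4.06, 3.68 and 4.49 CPM after 8 h, had a fold of 0.765 with an edgeR adjusted p of 0.0427, and JAG1 a fold of 1.19 with 0.0256, both short of the bounds.

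NUP50-AID cells had no call among the Notch genes at 9 h, nor at 9 h against 3 h (0.258% of all tested genes). At 9 h against 3 h, 4 of the 9 and 1486 of all genes had an unadjusted p under 0.05, and DESeq2 called no Notch gene. With the replicate block, where numbers pair, the calls over all genes at 9 h against 3 h went from 46 to 215, with no Notch gene among them. JAG2 came closest, with 49.5, 42.1 and 42.7 CPM untreated and 58.5, 63.2 and 56.3 CPM after 9 h (log2 fold change 0.39, SE 0.08, edgeR adjusted p = 0.0637). Without untreated replicate 1 JAG2 was called (0.46, adjusted p = 0.0111).

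ActD was used to ask how levels change once transcription stops. Against the old-labelled untreated AID-TPR cells, 4 of the 9 genes were called after 2 h of ActD and all 4 were lower (21.1% of all tested genes were called, 12.3% as lower). HES1 had the largest change, from 66.5, 87.8 and 91.3 CPM to 11.5, 20.7 and 8.97 CPM, a log2 fold change of -2.46 (SE 0.27, edgeR adjusted p = 0.000328). LFNG went to 11.4, 6.61 and 7.83 CPM (-1.23, SE 0.19, edgeR adjusted p = 0.00169), and JAG1 from 280, 256 and 230 CPM to 125, 123 and 115 CPM (-0.95, SE 0.10, edgeR adjusted p = 0.00029). NRARP went to 11, 10.1 and 6.97 CPM (-0.65, SE 0.20, edgeR adjusted p = 0.0372). NRARP lost its call without ActD replicate 1 or 3 or untreated replicate old2 or old3 (adjusted p between 0.0523 and 0.132). NOTCH1 had a fold of 0.722 (edgeR adjusted p = 0.0149), short of the bound, which it passed without ActD replicate 3 (-0.56, adjusted p = 0.01). HES4 was called as higher without that library (0.65, adjusted p = 0.0273), which held 6.93 CPM of it against 18.1 and 21.3 CPM in the other two ActD libraries. Values here are relative to the counts of the whole library, so a change in the amount of RNA per cell does not show in them. A fold after ActD is thus relative to the RNA that remained, and a gene can read higher without a gain of its RNA.

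The ActD libraries are labelled replicates 1 to 3, without old, and 3 of these 4 calls depended on the control, in a comparison added after seeing the data. Against the untreated AID-TPR libraries without that label, which lack mitochondrial counts, HES1 was lower as well (-2.10, SE 0.32, edgeR adjusted p = 0.000432). NRARP (-0.32, SE 0.22, adjusted p = 0.249), LFNG (-0.09, SE 0.18, adjusted p = 0.697) and JAG1 (-0.28, SE 0.12, adjusted p = 0.0716) were not called. DLL1, which overlaps FAM120B, was called as lower in that comparison (-1.91, SE 0.22, adjusted p = 6.6e-05) with 2.31, 2.26 and 1.76 CPM untreated and 0.557, 0.472 and 0.632 CPM after ActD. In that comparison 7810 genes were called against 3759 with the old-labelled control. What in the 2 sets of untreated libraries makes this difference was not tested.

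With ActD present, no effect of auxin on a Notch gene was detected. NRARP read 10.6, 10.1 and 7.66 CPM with both agents and 11, 10.1 and 6.97 CPM with ActD alone, a log2 fold change of 0.02 (SE 0.19). HES1 read 13.6, 25.9 and 9.40 CPM with both (0.24, SE 0.43) and LFNG 10.3, 6.95 and 7.52 CPM (-0.06, SE 0.22). No Notch gene was called (0% of all tested genes in edgeR), 0 of the 9 and 78 of all genes had an unadjusted p under 0.05, and DESeq2 called no Notch gene. The replicate block, where numbers pair, gave 5 calls over all genes and no Notch gene. The auxin effect under ActD minus that in old-labelled cells without it was 1.12 for NRARP (SE 0.33, edgeR adjusted p = 0.376) and 1.03 for LFNG (SE 0.28, edgeR adjusted p = 0.317), so the difference itself did not pass the threshold for either (0.0225% of all genes did). Against the set without the label old these differences were 1.10 for NRARP (SE 0.30, adjusted p = 0.546) and 0.36 for LFNG (SE 0.28).

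**Figure D5:**
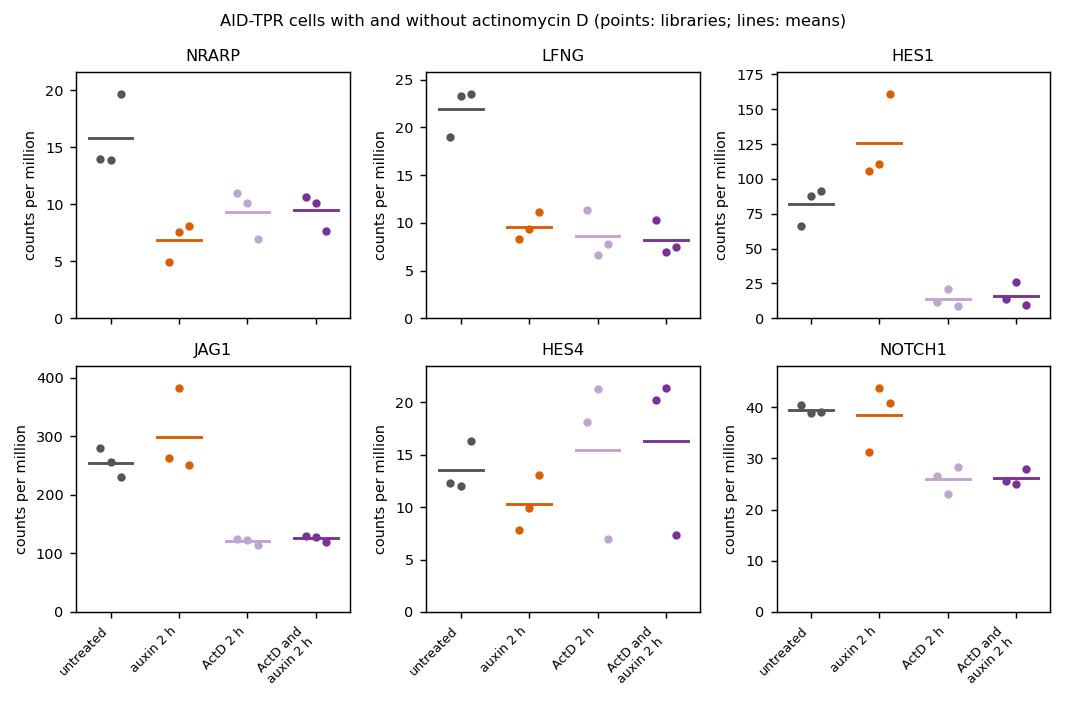
CPM of 6 Notch genes (one panel each, linear axes from 0) in the old-labelled AID-TPR libraries, untreated or with auxin for 2 h, and in the AID-TPR libraries with ActD or with ActD and auxin for 2 h; points are libraries and lines are means of 3. HES1 falls to between 8.97 and 25.9 CPM in all 6 ActD libraries, and NRARP reads 6.97 to 11 CPM with ActD and 7.66 to 10.6 CPM with ActD and auxin.

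The other genes of the pathway, 53 in all of which 40 were tested, were described the same way. At the early times none was called in either AID-TPR set at 2 h, in NUP153-AID, in NUP50-AID or in DLD-1, 1 in RANGAP1-AID, 3 in AID-NXF1 (all lower) and 5 in AID-GANP (4 lower, 1 higher). The 7.5% of the list in AID-NXF1 and 12.5% in AID-GANP stand beside 8.16% and 15.5% of all tested genes. MAML1, a Mastermind coactivator of the nuclear Notch complex, fell in AID-NXF1 (log2 fold change -0.70, SE 0.06, edgeR adjusted p = 1.43e-05) and AID-GANP (-0.93, SE 0.07, edgeR adjusted p = 8.75e-06). It stood at -0.35 (SE 0.08) in AID-TPR, not called. DTX4, a Deltex ubiquitin ligase of receptor turnover, was lower in AID-NXF1 (-0.70, SE 0.12) and in AID-GANP (-1.14, SE 0.09). HES6, a further member of the HES family, was lower in AID-GANP (-0.96, SE 0.16) and in old-labelled AID-TPR at 8 h (-1.47, SE 0.34, edgeR adjusted p = 0.0471), where it was the 1 call of the 40. The corepressor TLE4 was higher in AID-GANP (0.47, SE 0.07) and in RANGAP1-AID at 2 h (0.51, SE 0.08). RBPJ itself stood between -0.04 and 0.18 in both AID-TPR sets at 2 h, AID-NXF1 and AID-GANP, uncalled.

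At the late times RANGAP1-AID had 9 calls among the 40 (22.5%, beside 14.9% of all tested genes), with HES2 (1.17, SE 0.31) and DTX4 (0.71, SE 0.10) the largest upward and MAML2 (-0.92, SE 0.15) and the ligand-like DLK2 (-0.72, SE 0.20) the largest downward. NUP153-AID at 8 h had HES7 (0.76, SE 0.16), and NUP50-AID at 9 h had the Numb relative NUMBL (0.64, SE 0.13). After ActD 9 of the 40 were lower and 1 higher against the old-labelled control, led by the ligand DLL4 (-2.21, SE 0.27) and DTX4 (-1.52, SE 0.12), with the glucosyltransferase POGLUT1 (0.46, SE 0.11) the higher one. These 25% stand beside 21.1% of all tested genes. Against the untreated libraries without the label old, 6 of the 40 were lower and 3 higher, where 43.8% of all tested genes were called, and DLL4 (-0.94, SE 0.24) and DTX4 (-0.62, SE 0.12) kept their calls while POGLUT1 did not. The median log2 fold change of the 40 lay between -0.06 (AID-GANP) and 0.05 (old-labelled AID-TPR at 2 h and NUP50-AID at 3 h) over the early comparisons, and that of all tested genes between 0.00 and 0.01.

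The genes whose early fold changes lay closest to those of NRARP were sought over the 8 comparisons at 2 or 3 h, by the root mean square difference of the log2 fold changes, among the 14631 tested genes that averaged 50 counts or more. They were PPP1R3D (0.0863), FRAT2 (0.098), MARS2 (0.138), ZNF12 (0.149) and CLDN4 (0.159), against a median difference of 0.927 over all genes compared. Of these 5, 4 have 1 exon in their canonical transcript, as NRARP does, against 7.74% of the 14475 compared genes with an exon number, and ZNF12 has 5. Both AID-TPR sets enter this measure, so this line has more weight than the others. Among the Notch genes LFNG ranked 170 and HES4 1654 by likeness to NRARP, and HES1 ranked 14569, near the far end.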

How the data were processed

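Total RNA depleted of ribosomal RNA was sequenced as stranded paired-end libraries. The deposited files give raw read counts per Ensembl gene, which the authors made with STAR and featureCounts on GRCh38 (versions 2.6.1c and 1.5.2 per the labels, while the study's methods state other versions). No normalized values were used. Groups came from the labels. Each comparison was fitted in edgeR 4.0.16 (R 4.3.3, quasi-likelihood test, TMM scaling) with the libraries of the groups compared, over 17812 genes. These genes were above 1 CPM in more than 5% of the libraries without ActD (at least 4 of 60). The p-values were Benjamini-Hochberg adjusted over all of these genes. Genes were called below an adjusted p of 0.05 if their fold reached 1.3 upward or 0.7 downward, and tests of a difference between effects needed the adjusted p alone. CPM values divide by the total count of the library. DESeq2 1.42.0, other filters and scalings, a replicate block and the omission of each library were alternatives. Replicate numbers were taken to pair libraries where same-numbered libraries deviated together with a correlation over 0.1 for each number, which held for AID-TPR (not the old-labelled set), AID-NXF1 and AID-GANP, for RANGAP1-AID at both times, for NUP153-AID at 2 h, for NUP50-AID at 9 h against 3 h and for the ActD groups. The fit for AID-TPR at 2 h alone was also run on simulated counts. Their libraries were independent and lacked the pairing of the real ones, so that run does not check the calls given here. Named genes outside the list are the largest 2 called pathway genes per direction and the 5 closest to NRARP. The genes and lists were chosen with earlier results of these data known.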

Additional observations from a re-analysis of the deposited data

Results flagged for a closer look

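Differences between times or lines passed a test of the difference itself for 5 values. In NUP153-AID cells 3 transcripts were higher after 8 h than after 2 h of auxin by edgeR: HES1 by 1.06 on the log2 scale (SE 0.10), HES4 by 0.54 (SE 0.12) and LFNG by 0.63 (SE 0.15). In RANGAP1-AID cells NRARP was higher at 8 h than at 2 h by 0.63 (SE 0.12). The auxin effect on LFNG was 0.92 higher in AID-TPR than in AID-NXF1 cells (SE 0.21), with the AID-TPR libraries that lack the label old. That call was lost in one fit over all 66 libraries and in 9 omissions of 1 library, and the old-labelled AID-TPR set had LFNG at -1.08 beside -1.33 in AID-NXF1, a difference that was not tested. No group of 4 or more samples exists here, so no library was tested as an outlier.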

How the results depend on the processing

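No fold change of a Notch gene reversed where its main value was called. The number of Notch genes called moved as follows. These counts mostly stand without those over all genes, so they cannot be read as particular to Notch genes. Without a filter on low counts it was 2 in AID-TPR at 2 h, 3 and 4 in old-labelled AID-TPR at 2 and 8 h, 1 in NUP50-AID at 9 h and 1 in RANGAP1-AID at 2 h, and the AID-TPR effect differed for 2 genes from NUP153-AID, NUP50-AID and DLD-1, 1 from RANGAP1-AID and 3 from AID-GANP, and under ActD for 2. With the replicate block it was 2, 3 and 4 in these AID-TPR comparisons, 2 in NUP50-AID at 9 h, 1 in RANGAP1-AID at 2 h and 1 in NUP153-AID at 8 h against 2 h, with differences for 2 genes from NUP153-AID, NUP50-AID, AID-NXF1 and DLD-1, 1 from RANGAP1-AID, 5 from AID-GANP and 2 under ActD. The block changed no other such count. Where numbers do not pair, the block result is a value only. DESeq2 gave 3 in old-labelled AID-TPR at 2 h, 1 each in NUP50-AID at 9 h and RANGAP1-AID at 2 h, and 1 difference each from NUP153-AID, AID-GANP and DLD-1. One fit over all 66 libraries gave 3 and 4 in old-labelled AID-TPR, 0 in NUP153-AID and RANGAP1-AID at 8 h and in RANGAP1-AID at 8 h against 2 h, and 0, 1 and 2 differences from AID-NXF1, AID-GANP and under ActD. Library sizes alone gave 1 in old-labelled AID-TPR at 8 h, 1 in NUP50-AID at 9 h, 0 in RANGAP1-AID at 8 h and 1 from AID-GANP, and a filter on CPM and FPKM 0 in RANGAP1-AID at 8 h. Smaller moves were 3 in old-labelled AID-TPR at 8 h with DESeq2 (NRARP added), 3 in AID-GANP with one fit (HES4 lost), 5 there with the adjusted p alone (JAG1 added), and 5 under ActD with it or with library sizes alone (NOTCH1 added). The adjusted p alone gave 2 and 3 at 8 h in NUP153-AID and RANGAP1-AID and 2 in RANGAP1-AID at 8 h against 2 h. Chosen after seeing the data, both AID-TPR sets together gave 3, and the control without the label old gave 2 for ActD. The cause was not tested. Omitting 1 library gave 0 to 1 in AID-TPR at 2 h in either set, 0 to 3 in the old-labelled set at 8 h, 0 to 1 in NUP153-AID at 8 h, NUP50-AID at 9 h and RANGAP1-AID at both times, 1 to 2 in NUP153-AID at 8 h against 2 h, 4 to 5 in AID-GANP, 3 to 5 under ActD, and 0 to 1, 0 to 1 and 0 to 2 differences from NUP153-AID, AID-NXF1 and AID-GANP. Over all genes the calls in AID-TPR at 2 h were 91, 205 with DESeq2 and 416 with the block, and in old-labelled cells at 2 h 81, 431 and 292. In the 6 early comparisons examined, the fit without the filter took the spread as common to all genes (an infinite prior), so its added calls rest on that.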
